A study of Mus musculus with 2 samples.

Results

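The 41 genes described here encode the machinery that copies DNA and the enzymes that make and guard its nucleotide building blocks. They were chosen by name, with earlier results of these data known, and matched to the gene symbols of the deposited tables. All 41 were found among 32285 genes. Single-cell RNA was measured in CD8+ tumor-infiltrating lymphocytes (TIL) from B16 F0 tumors, a transplanted mouse melanoma, as 1 library from lean and 1 from obese C57Bl/6J mice. All mice were male and 16 weeks old, the lean mice were fed normal chow (NC) and the obese mice a western diet (WD), and no other allele or treatment is named for either group. The cells were drawn from tumors with CD8 magnetic beads and sorted by CD8 staining, and the number of mice behind each library is not given in the sources used here. Each diet is a lone library without replicates, so no test between diets was possible, and differences between mice cannot be told apart from differences between diets.

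Before S phase, the origin recognition complex, Cdc6 and Cdt1 load the Mcm helicase onto origins of replication, a step called licensing. Cdc45 and the GINS complex then turn the loaded helicase on, polymerases and primase copy the strands behind a sliding clamp, and flap cutting and ligation join the pieces of the lagging strand. Ribonucleotide reductase, thymidylate synthase and thymidine kinase supply deoxynucleotides, and many of these genes are known targets of E2F transcription factors, which act as a cell enters S phase. Activated CD8 T cells are known to divide rapidly, while naive T cells rest outside the cycle.

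Because transcripts of these genes were higher in dividing cells in the results that follow, the windows around their transcription starts (250 bases before to 50 bases after, RefSeq, build GRCm38.p6) were searched on both strands for 3 kinds of motif. A window was given for 35 of the 41 genes, and not for Mcm4, Gins1, Gins2, Pole, Rfc2 and Ccne2. E2F-type motifs were taken as any of TTTCCCGC, TTTGGCGC, TTTCGCGC, TTTGCCGC, TTTGGCGG and TTTCCCGG, which can overlap each other. The stretches below show the motif letters in capitals in 5 genes of different roles: Mcm6 and Mcm5 (subunits of the Mcm helicase), Clspn (Claspin, a checkpoint mediator at the fork), Pola1 (the catalytic subunit of polymerase alpha) and Chaf1a (a histone chaperone that follows the fork). Rrm2, which encodes the small subunit of ribonucleotide reductase, is shown because it held no E2F-type motif although it differed most between dividing and other cells, with capitals for its NF-Y box. Ung, which encodes uracil DNA glycosylase, is shown because it followed a different course from the rest. It held none of the 3 kinds of motif, and neither did Dut, E2f1, Tyms, Rfc4, Rfc5, Ccne1, Tk1 and Chaf1b.
Mcm6, chr1:128359731-128359830, minus strand: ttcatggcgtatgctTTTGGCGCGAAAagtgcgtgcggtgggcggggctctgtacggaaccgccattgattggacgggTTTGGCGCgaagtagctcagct
Mcm5, chr8:75109312-75109411, plus strand: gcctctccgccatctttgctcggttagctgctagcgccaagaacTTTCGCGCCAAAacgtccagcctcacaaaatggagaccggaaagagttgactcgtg
Clspn, chr4:126556813-126556912, plus strand: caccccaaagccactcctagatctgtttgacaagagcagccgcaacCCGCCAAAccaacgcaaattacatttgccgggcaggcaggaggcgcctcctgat
Pola1, chrX:93632240-93632339, minus strand: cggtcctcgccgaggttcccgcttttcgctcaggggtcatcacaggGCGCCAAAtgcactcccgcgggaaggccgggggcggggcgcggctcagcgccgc
Chaf1a, chr17:56040316-56040415, plus strand: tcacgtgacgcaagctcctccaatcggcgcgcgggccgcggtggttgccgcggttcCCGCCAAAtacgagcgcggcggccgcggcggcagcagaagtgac
Rrm2, chr12:24708141-24708240, plus strand: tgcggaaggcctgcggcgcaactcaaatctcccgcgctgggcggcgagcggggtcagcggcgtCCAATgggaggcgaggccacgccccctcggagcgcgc
Ung, chr5:114130286-114130385, plus strand: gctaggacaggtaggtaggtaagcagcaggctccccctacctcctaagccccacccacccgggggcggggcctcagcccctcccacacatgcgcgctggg

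An E2F-type motif was found in 15 of the 35 genes (42.9%), against 1230 of 27025 genes of the table (4.55%). It stood in 6 of 8 origin licensing genes, in 2 of 3 polymerase and primase genes and in 3 of 5 genes for copying chromatin and methylation, and in 0 of 6 genes for nucleotide synthesis and sanitation. The NF-Y box CCAAT was found in 21 of the 35 genes (60%) against 41.1% of all genes. The cell cycle homology region TTTGAA (CHR), known from genes expressed in mitosis, was found in 4 of the 35 genes (11.4%) against 20.2% of all genes. In 25 matched mitosis and division marker genes the order was the other way, with CHR in 19 (76%) and an E2F-type motif in 2 (8%). The NF-Y box was found in 21 of these 25 genes (84%), a higher share than in the 35. A further 36 matched replication genes from a list outside the 41 held an E2F-type motif in 14 cases (38.9%). The genes with and without an E2F-type motif had like median ratios of dividing over other cells, 1.77 and 1.75 on the log2 scale in the lean library. Their median log2 ratios of obese over lean were less alike, 0.133 and 0.055 in dividing cells and 0.246 and 0.063 in the others. The part of the motif in these ratios was not tested. A match is a run of letters and not a measured binding site, and no match says only that these letters are not in the window.

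**Figure D1:**
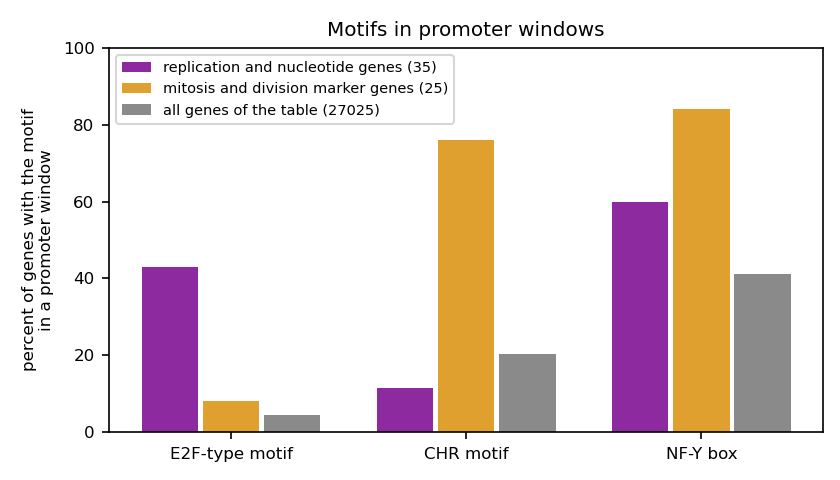
Percent of genes (y axis) whose promoter window held an E2F-type motif, a CHR or an NF-Y box, for 35 replication and nucleotide genes, 25 mitosis and division marker genes, and 27025 genes of the table. The E2F-type bar is highest for the replication genes (42.9%), and the CHR bar (76%) and NF-Y bar (84%) for the mitosis genes.

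Cells were kept with under 7.5% mitochondrial UMIs and between 500 and 50000 UMIs, which gave 2456 cells (27815785 UMIs) in the lean and 2289 cells (28705830 UMIs) in the obese library. A UMI (unique molecular identifier) marks 1 captured RNA molecule, and the median cell held 7958 UMIs in the lean and 9103 in the obese library. Only 2 kept barcodes occurred in both libraries. A cell was called dividing when Top2a, Mki67 and Birc5, 3 genes of mitosis that are not among the 41, summed to 10 UMIs or more. By that rule 326 lean cells (13.3%, exact binomial 95% interval 12.0 to 14.7) and 374 obese cells (16.3%, 14.8 to 17.9) were dividing. The class is a range cut from a count and not a cell type: 49 lean and 59 obese cells lay between 8 and 11 division marker UMIs. Dividing cells were also deeper, with medians of 25885.5 and 25294.5 UMIs against 7391 and 8095 in the other cells, so a fixed UMI limit favours deep cells. Most cells carried the labelled identity: 323 of 326 lean and 374 of 374 obese dividing cells had a Cd8a or Cd8b1 UMI, and 326 and 373 a Cd3 UMI. In this class 0 cells held 3 or more melanoma UMIs, while 5 lean and 7 obese cells held 3 or more myeloid UMIs. Of the other cells, 95.6% (lean) and 96.0% (obese) had a Cd8a or Cd8b1 UMI, and 14 in each library had neither a Cd3 nor a Cd8 UMI. Among them 14 lean and 30 obese cells held 3 or more myeloid UMIs, and 0 and 1 held 3 or more melanoma UMIs.

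Levels are given as CPM, the UMIs of a gene per 1000000 UMIs of the cells summed, with exact Poisson 95% intervals in the plots. All intervals cover counting error only. Counts from the 3′ end of transcripts are not per length, so levels are not ranked between genes. The 41 genes together made up 5486 CPM of the lean dividing cells and 1494 CPM of the other lean cells, and 5834 and 1651 CPM in the obese library. Dividing cells held 29.9% of the lean UMIs but 61.1% of the UMIs of these genes, and 34.2% and 64.8% in the obese library. Every one of the 41 genes passed the minimum of 20 UMIs in each comparison.

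In both libraries 38 of 41 genes were at least 2-fold higher in dividing cells, and all 41 ratios lay above 0 on the log2 scale. The sign of the Ung ratio changed with the settings, as given below. Over all genes tested, 6.68% were 2-fold higher and 7.92% 2-fold lower in the lean library and 6.63% and 8.81% in the obese library, and 50.8% and 49.4% lay above 0. The median log2 ratio of dividing over other cells was 1.77 in the lean and 1.80 in the obese library, beside 0.010 and −0.0086 over all genes tested. The ratios of the 41 genes ran in like order in both libraries (Pearson r 0.975, Spearman rho 0.975 across 41 genes, which share cells and depth and are not independent replicates).

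Rrm2 (ENSMUSG00000020649, chromosome 12, 24708241 to 24714146 in GRCm38) stood at 196 CPM in lean dividing cells against 10.0 CPM in the other lean cells, and at 196 against 12.3 CPM in the obese library. This was a log2 ratio of 4.29 (4.08 to 4.51) in the lean and 3.99 (3.79 to 4.20) in the obese library, the largest of the 41 in each. Pclaf, a small factor that binds the PCNA clamp, followed with 693 against 35.8 CPM (lean) and 683 against 47.8 CPM (obese), or 4.27 and 3.84 on the log2 scale. Clspn reached 2.97 and 2.95, and Cdc45, which activates the helicase, 2.84 and 2.82. Tk1, the cytosolic thymidine kinase of the salvage route, reached 2.80 and 2.77. For these 5 genes the dividing cells lay far above the others in each library, with no overlap of the counting intervals.

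By role, the median log2 ratio in the lean library was highest for nucleotide synthesis and sanitation (2.65), followed by S-phase entry and checkpoint genes (2.29), helicase activation (2.11) and polymerases and primase (2.02). It was 1.76 for strand joining and uracil removal, 1.51 for copying chromatin and methylation, 1.504 for the clamp, its loader and single-strand binding, and 1.46 for origin licensing. Within the nucleotide genes Tyms (thymidylate synthase) stood at 215 against 31.1 CPM in the lean library, Rrm1 (the large subunit of ribonucleotide reductase) at 153 against 26.8 CPM, and Dut (dUTPase, which keeps uracil out of DNA) at 708 against 220.5 CPM. Among licensing genes Mcm2 stood at 51.6 against 24.2 CPM and Mcm7 at 236 against 69.2 CPM, while Cdc6 was at 32.1 against 6.0 CPM. The 6 Mcm subunits of the helicase thus kept 24.2 to 80.9 CPM in lean cells outside the dividing class.

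Ung, Cdt1 and Rpa2 did not reach a 2-fold difference in either library. Ung (ENSMUSG00000029591, chromosome 5, 114130386 to 114139323) was at 15.8 CPM in lean dividing cells from 132 UMIs, and at 14.5 CPM in the other lean cells. That is a log2 ratio of 0.13 (−0.18 to 0.43). In the obese library it was at 28.7 CPM from 282 UMIs against 16.2 CPM, a log2 ratio of 0.82 (0.59 to 1.06), so the intervals of the libraries do not overlap. Over the alternative settings the Ung ratio ranged from −1.25 to 0.86 in the lean and from −1.04 to 1.94 in the obese library. Cdt1, the licensing factor that is known to be destroyed as S phase begins, had log2 ratios of 0.76 (0.50 to 1.02) and 0.74 (0.52 to 0.95). Rpa2, a subunit of the single-strand binding protein RPA, had 0.82 (0.70 to 0.94) and 0.89 (0.78 to 1.01). Mcm2 lay just past the limit at 1.09 and 1.11, as did Mcm4 at 1.13 in the lean and Slbp (stem-loop binding protein of histone mRNAs) at 1.11 in the obese library.

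**Figure D2:**
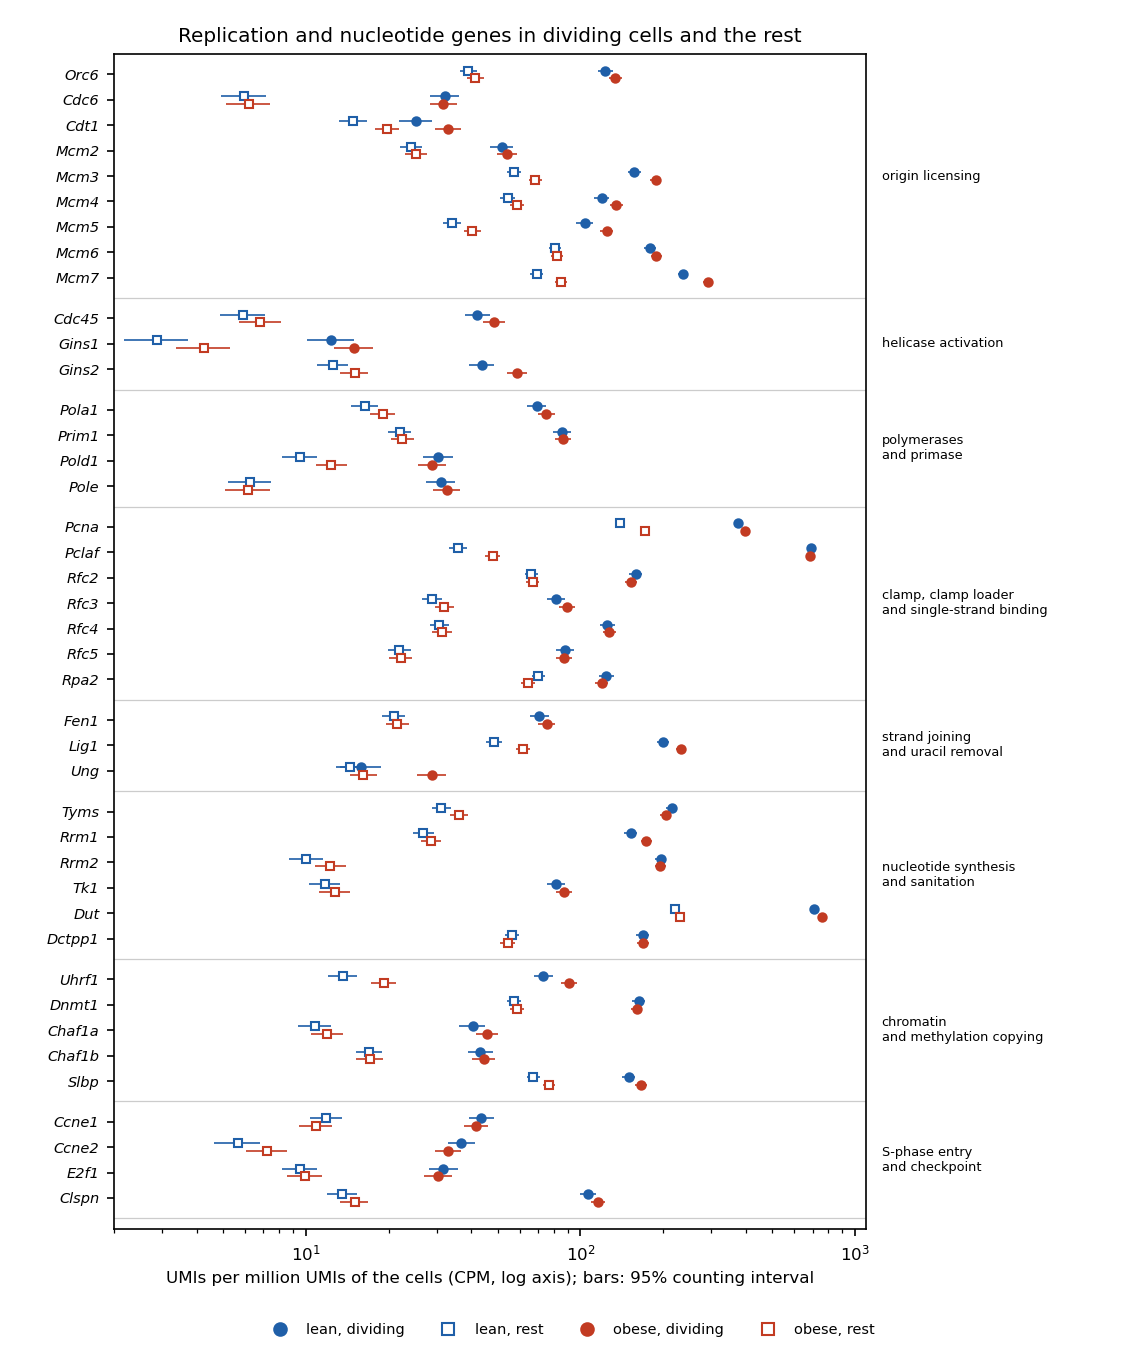
CPM (log axis) of each of the 41 genes, grouped by role, in dividing cells (circles) and the other cells (squares) of the lean and obese library, with exact Poisson 95% intervals. The circles lie to the right of the squares of the same library for every gene, and for Ung in the lean library the intervals overlap.

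Other lists show how far this pattern reached, beside 6.68% (lean) and 6.63% (obese) of all genes tested that were 2-fold higher. All 26 mitosis genes were 2-fold higher in dividing cells, with medians of 4.37 and 4.04, but they share the process of the genes that define the class. Of 43 further replication genes, 28 in the lean and 27 in the obese library were 2-fold higher, with medians of 1.248 and 1.174. Asf1b (a histone chaperone) led them at 3.23 and 3.38, while Pold4 was at −0.29 and −0.46. Of 24 further nucleotide genes 6 were 2-fold higher in each library. Tk2, the mitochondrial thymidine kinase, was lower in dividing cells at −1.10 and −1.14, as was Samhd1, which breaks down deoxynucleotides, at −0.95 and −1.13. Of 20 genes of G1 cell cycle control 9 were higher in each library, with E2f8 at 5.13 and 4.39 and Cdkn1b, an inhibitor of cyclin-dependent kinases, at −0.96 and −0.92.

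Along the division marker sum, which is not a measured order in time, the 41 genes did not follow a single course. Cells were placed in 5 bins by their division marker UMIs: 0, 1 to 3, 4 to 9, 10 to 29, and 30 or more. Summed over the genes, the lean library held 886, 1755, 3863, 4984 and 5839 CPM in these bins, and the obese library 965, 1835, 4084, 5638 and 5962 CPM. The mitosis list instead held 106, 184, 607, 1819 and 4143 CPM in the lean and 105, 223, 682, 1448 and 4161 CPM in the obese library. The median log2 ratio of the 4 to 9 bin over the top bin was −0.43 and −0.44 for the 41 genes, against −3.17 and −2.94 for the mitosis list, whose low level there is in part set by binning on mitosis genes. All 41 genes were higher in the 4 to 9 bin than in cells with 0 division marker UMIs, by a median of 2.46 and 2.18 on the log2 scale. The mitosis list rose as well over these bins, by medians of 3.06 and 2.98, with 20 of the 21 genes that could be compared above 0. Median depth rose along the bins from 6855 to 28704.5 UMIs in the lean and from 7265 to 28451 UMIs in the obese library.

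Ung leaned most to the bins below the top one. It was at 8.13, 17.1, 39.4, 24.7 and 9.62 CPM over the 5 bins of the lean library, and at 9.56, 17.0, 42.4, 54.2 and 12.0 CPM in the obese library. Its log2 ratio of the 4 to 9 bin over the top bin was 2.03 (1.51 to 2.58) in the lean and 1.82 (1.37 to 2.28) in the obese library, above every other gene of the 41. In each library the Poisson intervals of the top bin and of the bin with 0 division marker UMIs overlapped. Mcm2 (0.37 and 0.23), Mcm3 (0.26 and 0.13), E2f1 (0.11 and 0.28) and Mcm4 (0.20 and 0.02) also had ratios above 0 in both libraries, though only those of Mcm2 and Mcm3 in the lean library had intervals above 0.

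Rrm2 leaned most to the top bin. It was at 3.36, 7.61, 49.6, 140 and 235 CPM over the lean bins and 3.06, 9.29, 59.6, 160 and 219 CPM over the obese bins. Its log2 ratio of the 4 to 9 bin over the top bin was −2.25 (−2.54 to −1.96) and −1.88 (−2.14 to −1.63). Pclaf followed at −2.08 and −1.77, then Clspn (−1.13 and −1.30), Tyms (−1.29 and −1.13) and Tk1 (−1.33 and −1.07). The order of the 41 ratios was alike in the libraries (r 0.961, rho 0.916 across 41 genes).

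In both libraries 16 genes were highest in the top bin, among them Tyms, Rrm1, Rrm2, Tk1, Dut and Dctpp1, which are all 6 of the nucleotide genes, and Pcna, Pola1, Prim1 and Dnmt1. Another 10 were highest in the 10 to 29 bin of both libraries, among them Cdc6, Mcm3, Mcm6, Mcm7, Gins1, Gins2, Ccne2 and E2f1. Mcm2, Mcm4, Mcm5 and Ung were highest in the 4 to 9 bin of the lean library and in the 10 to 29 bin of the obese library. The other 11 genes had different top bins in the libraries. Some of these highest values lay close to the next bin. Lean Mcm5 was at 108, 107 and 101 CPM in the bins of 4 to 9, 10 to 29 and 30 or more. The interval of the log2 ratio of the 10 to 29 bin over the top bin covered 0 in both libraries for Gins1, Ccne2, Prim1 and Dctpp1. It lay clear of 0 in both for Cdc6, Mcm3, Tyms, Rrm1, Rrm2 and Tk1, among others. The top bins also changed when cells were binned by division marker UMIs per 10000 UMIs. Median depth was then 16787 (lean) and 17194.5 (obese) in the top bin of 20 or more. It was higher, 25052 and 22590, in the bin of 10 to under 20. Then 8 genes were highest in the top bin of both libraries: Cdc45, Clspn, Dnmt1, Pclaf, Pola1, Rrm1, Rrm2 and Slbp. Tyms, Dut, Dctpp1, Pcna and Prim1 were highest at 10 to under 20 in both, and Tk1 was so in the obese library. Ung and Mcm3 were highest at 2 to under 5 in both libraries.

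**Figure D3:**
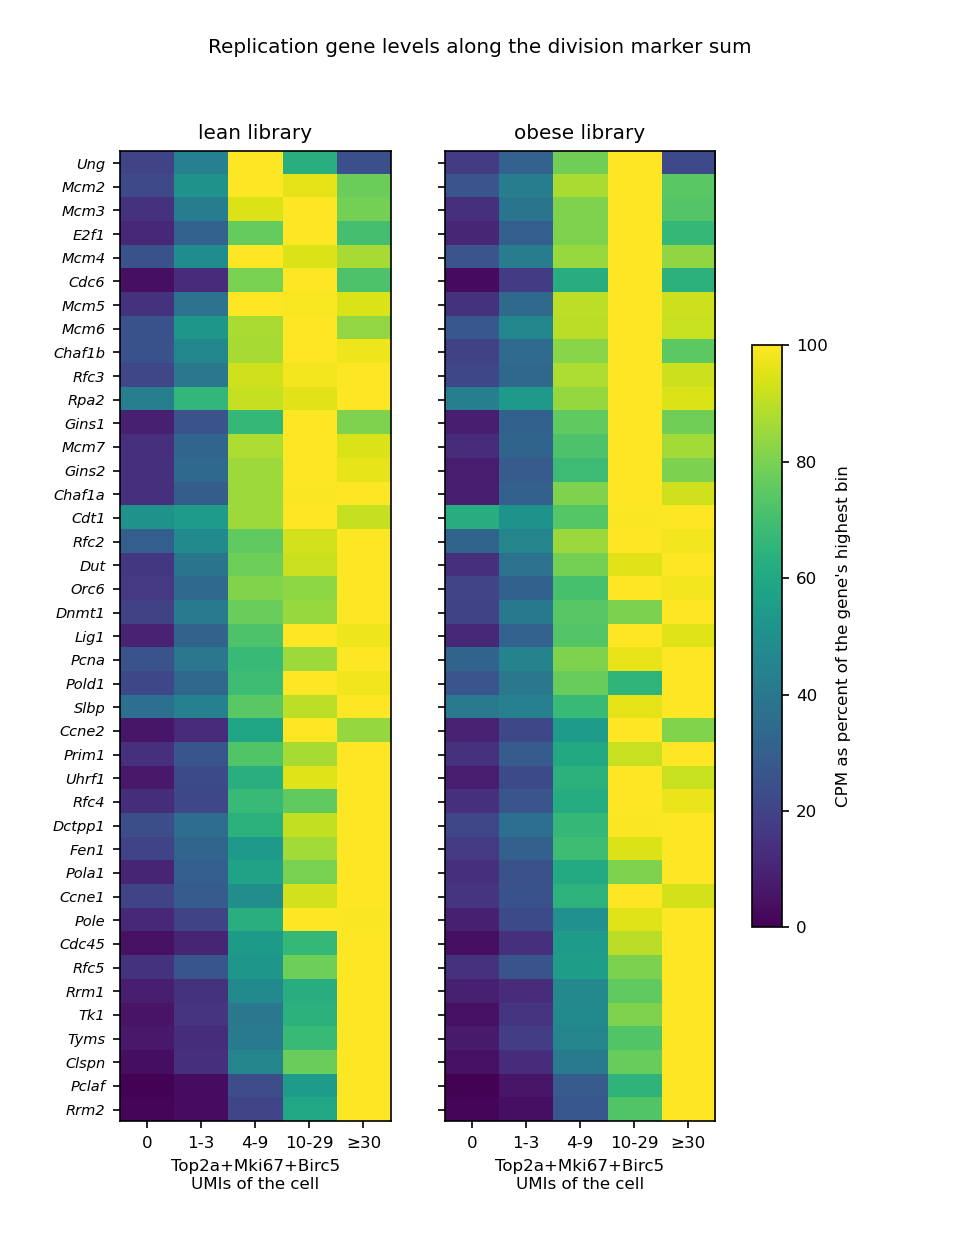
CPM of each gene in 5 bins of division marker UMIs per cell (x axis), as percent of the gene's highest bin (colour), for the lean and obese library, with genes ordered by the ratio of the 4 to 9 bin over the top bin. Ung at the top is brightest in the middle bins, and Rrm2 and Pclaf at the bottom are brightest in the bin of 30 or more, at 21.1% and 23.7% of it in the lean 4 to 9 bin.

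Because depth differed between classes, each cell was also thinned at random to 2000 UMIs, which left out 126 lean and 112 obese cells, none of them dividing. A dividing cell then held a median of 10.5 UMIs of the 41 genes in the lean (quartiles 6 and 15) and 12 in the obese library (7 and 15), against 2 (1 and 3) in the other cells of each library. At least 5 such UMIs were seen in 83.4% of lean (78.9 to 87.3) and 88.2% of obese dividing cells (84.5 to 91.3), against 12.6% (11.2 to 14.2) and 15.3% (13.7 to 17.1) of the other cells. Without thinning these shares were 99.4% and 100% against 57.2% and 66.2%. A comparison group held cells with 0 division marker UMIs, at least 3 UMIs of Ccr7 and Lef1 and no Gzmb UMI. They are called Ccr7 or Lef1 cells, after 2 genes known from naive T cells. Their UMIs of the 41 genes can be their own transcripts or free RNA, which were not told apart. At least 5 UMIs of the 41 genes were seen in 1.75% of 229 lean and 3.23% of 248 obese cells of this group. Its median depths were 7478 and 7919 UMIs. Cells outside the dividing class with 3 or more UMIs of Gzmb (granzyme B) were at 20.4% of 795 lean and 26.2% of 565 obese cells. Their medians were 10962.5 and 12056 UMIs before thinning. Those among them with 0 division marker UMIs were at 8.22% and 10.4%. Gzmb and Prf1 together were lower in the obese library, as given below, so the fixed limit may not take like cells from both libraries.

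Some cells outside the dividing class held at least as many thinned UMIs of the 41 genes as the median dividing cell of their library. There were 59 lean (2.94%) and 75 obese cells (4.16%), at limits of 10.5 and 12 UMIs, so the shares have no common limit. The median division marker sum of these cells was 4 UMIs in the lean and 5 in the obese library. These sums lie under 10 because the cells were taken from outside the class.

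**Figure D4:**
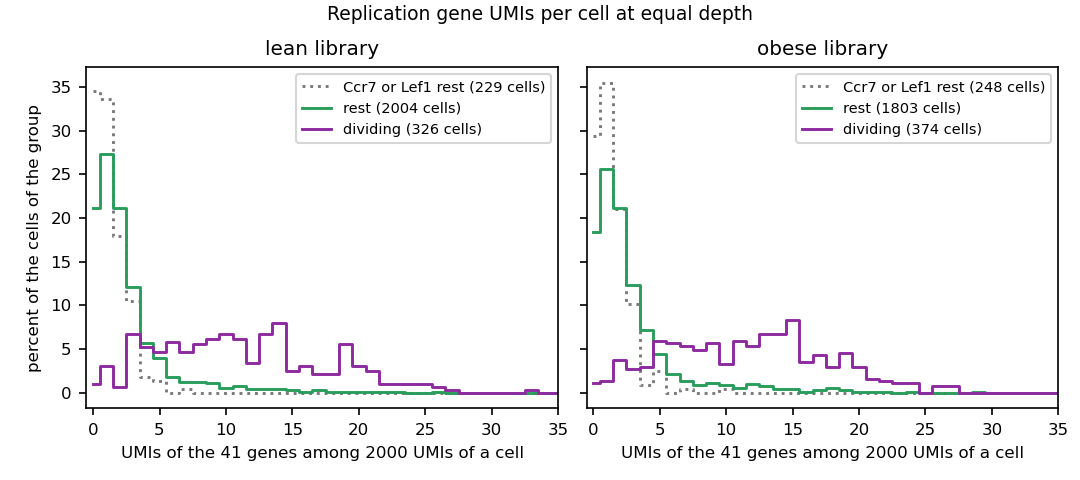
Percent of cells (y axis) by the number of UMIs of the 41 genes among 2000 UMIs of a cell (x axis), for dividing cells, all other cells and the Ccr7 or Lef1 part of them, in the lean and obese library. Dividing cells spread around medians of 10.5 and 12 UMIs, and the Ccr7 or Lef1 cells lie near 1.

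Single genes differed in how specific their UMIs were to dividing cells. Pclaf was seen in 62.3% of thinned lean dividing cells (56.8 to 67.5) and 68.4% of obese ones (63.5 to 73.1), against 2.54% and 3.99% of the other cells. Among Ccr7 or Lef1 cells it was seen in 0 of 229 lean cells, which allows a share of cells with a UMI of up to 1.31% (3 cells of the total), and in 0.403% of obese cells. Rrm2 was seen in 34.7% and 30.2% of dividing cells, 1.30% and 1.61% of the others and 0.437% and 0.806% of Ccr7 or Lef1 cells. Pcna (the sliding clamp, which also serves DNA repair) was broader, at 44.8% and 51.3% of dividing cells, 21.2% and 24.1% of the others, and 13.5% and 14.5% of Ccr7 or Lef1 cells. Cdt1 was seen in 5.52% and 9.09% of dividing cells, 2.99% and 4.38% of the others and 3.49% (1.52 to 6.77) and 3.23% (1.403 to 6.26) of Ccr7 or Lef1 cells. Its shares outside the dividing class, and in lean dividing cells, thus lay within the intervals of the Ccr7 or Lef1 cells. Cdc6 was seen in 0 of 229 lean and 0 of 248 obese Ccr7 or Lef1 cells, which allows up to 1.31% and 1.21%.

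The question the design poses is whether CD8+ TIL differ between lean and obese mice, and here the 41 genes were compared within each class. A limit of 0.322 on the log2 scale was set in either direction. Among dividing cells 3 of 41 genes were past the limit on the higher side in the obese library and 0 on the lower side, while 15% of all genes tested were higher and 12.3% lower. The share of the 41 (7.32%) was thus below that of all genes tested, which were not matched to the 41 for UMIs. The part of UMI numbers in these shares was not tested. The median log2 ratio of obese over lean was 0.087, with 29 of 41 genes above 0, beside 0.020 and 53.4% of all genes tested.

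The 3 genes past the limit were Ung, Gins2 and Cdt1. Ung was at 15.8 CPM in the lean and 28.7 CPM in the obese dividing cells, a log2 ratio of 0.86 (0.55 to 1.17). These UMIs lay in 73 lean and 113 obese dividing cells, and the 10 cells with the most held 31.8% and 21.3% of them. The Ung ratio was largest in the bin of 10 to 29 division marker UMIs, with 24.7 against 54.2 CPM (log2 ratio 1.14, 0.77 to 1.52). In the top bin it was 0.32 (−0.24 to 0.88). The division markers themselves stood at 806 CPM in the lean and 726 CPM in the obese cells of the 10 to 29 bin. The part of that difference in the Ung ratio was not tested. Over the alternative settings the Ung ratio in dividing cells ranged from 0.25 to 2.97. The lowest came with the class set by the rate of division marker UMIs, at least 10 per 10000 UMIs of a cell, and the highest with cells thinned to 2000 UMIs, where only 3 lean dividing cells held an Ung UMI. Gins2 (a subunit of the GINS complex) was at 43.7 CPM in the lean and 58.6 CPM in the obese library, 0.42 (0.23 to 0.62), and Cdt1 was at 25.1 and 33.0 CPM, 0.39 (0.14 to 0.65). With the class set by rate 0 of 41 genes passed the limit and the median was −0.014.

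Uhrf1, which guides maintenance methylation, was just below the limit at 0.315 (0.17 to 0.47), as was Mcm7 at 0.30 (0.21 to 0.38). Over the alternative settings Uhrf1 ranged from −0.20 to 0.35 and Mcm7 from −0.02 to 0.52. At the other end were Ccne2, the cyclin E2 gene, at 36.9 CPM in the lean and 33.0 CPM in the obese library (−0.16, −0.39 to 0.07), Pold1 (polymerase delta) and Tyms at −0.08 each, E2f1 and Ccne1 at −0.06 each. None of these 5 intervals lay clear of 0. By role, 8 of 9 licensing genes and 3 of 3 helicase activation genes lay above 0 in dividing cells, and 1 of 4 S-phase entry and checkpoint genes did. This stands beside 29 of the 41 and 53.4% of all genes tested. Some signs changed with the settings: Cdc45 ranged from −0.20 to 0.29, Mcm5 from −0.06 to 0.33 and E2f1 from −0.19 to 0.99. Mcm3, Gins1 and Gins2 stayed above 0. The mitosis list had a median of 0.013 with 0 of 26 genes past the limit in either direction.

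Outside the dividing class 7 of 41 genes were past the same limit on the higher side in the obese library and 0 on the lower side, with 16.9% of all genes tested higher and 10.4% lower. The share of the 41 (17.1%) was near that of all genes tested, which again were not matched to the 41 for UMIs. The median log2 ratio was 0.15 with 37 of 41 above 0, beside 0.038 and 55.7% of all genes tested. Gins1 was at 2.87 CPM in the lean and 4.24 CPM in the obese library from 56 and 80 UMIs, a log2 ratio of 0.56 (0.05 to 1.08). Uhrf1 was at 13.6 and 19.2 CPM (0.50, 0.27 to 0.73), Cdt1 at 14.8 and 19.8 CPM (0.42, 0.19 to 0.64) and Pclaf at 35.8 and 47.8 CPM (0.42, 0.27 to 0.56). Pold1 (0.38), Lig1, the ligase that joins lagging strand pieces (0.36), and Ccne2 (0.35) completed the 7. Rpa2 was lowest at −0.13 (−0.24 to −0.02), followed by Ccne1 (−0.13), Dctpp1 (−0.05), Pole (−0.03) and Chaf1b (0.01). These cells also held more division marker UMIs in the obese library: 22.5% of the kept obese cells against 20.2% of the lean lay in the bin of 1 to 3, and 17 of 26 mitosis genes were past the limit on the higher side. The part of these UMIs in the ratios was not tested. The Pclaf ratio changed sign with the bin, being −0.61 (−1.18 to −0.06) in cells with 0 division marker UMIs and 0.77 (0.50 to 1.06) in those with 1 to 3.

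Over all kept cells 10 of 41 genes were past the limit on the higher side in the obese library and 0 on the lower side, beside 15.4% and 10.1% of all genes tested, and 40 of 41 lay above 0 with a median of 0.19, beside 56.8% of all genes tested. Uhrf1 (0.48), Gins1 (0.47), Ung (0.46), Gins2 (0.45) and Cdt1 (0.44) were highest, and Rpa2 (−0.06), Ccne1 (0.005), Rfc2 (0.03), Dctpp1 (0.06) and E2f1 (0.07) lowest. When the obese classes were weighted to the lean mix of UMIs the median was 0.10 and 34 of 41 lay above 0. Within the 5 bins the median ratio was 0.09 in cells with 0 division marker UMIs, 0.10 at 1 to 3, 0.09 at 4 to 9, 0.19 at 10 to 29 and 0.04 at 30 or more. In the same order 24, 22, 29, 36 and 25 of the 41 genes lay above 0.

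**Figure D5:**
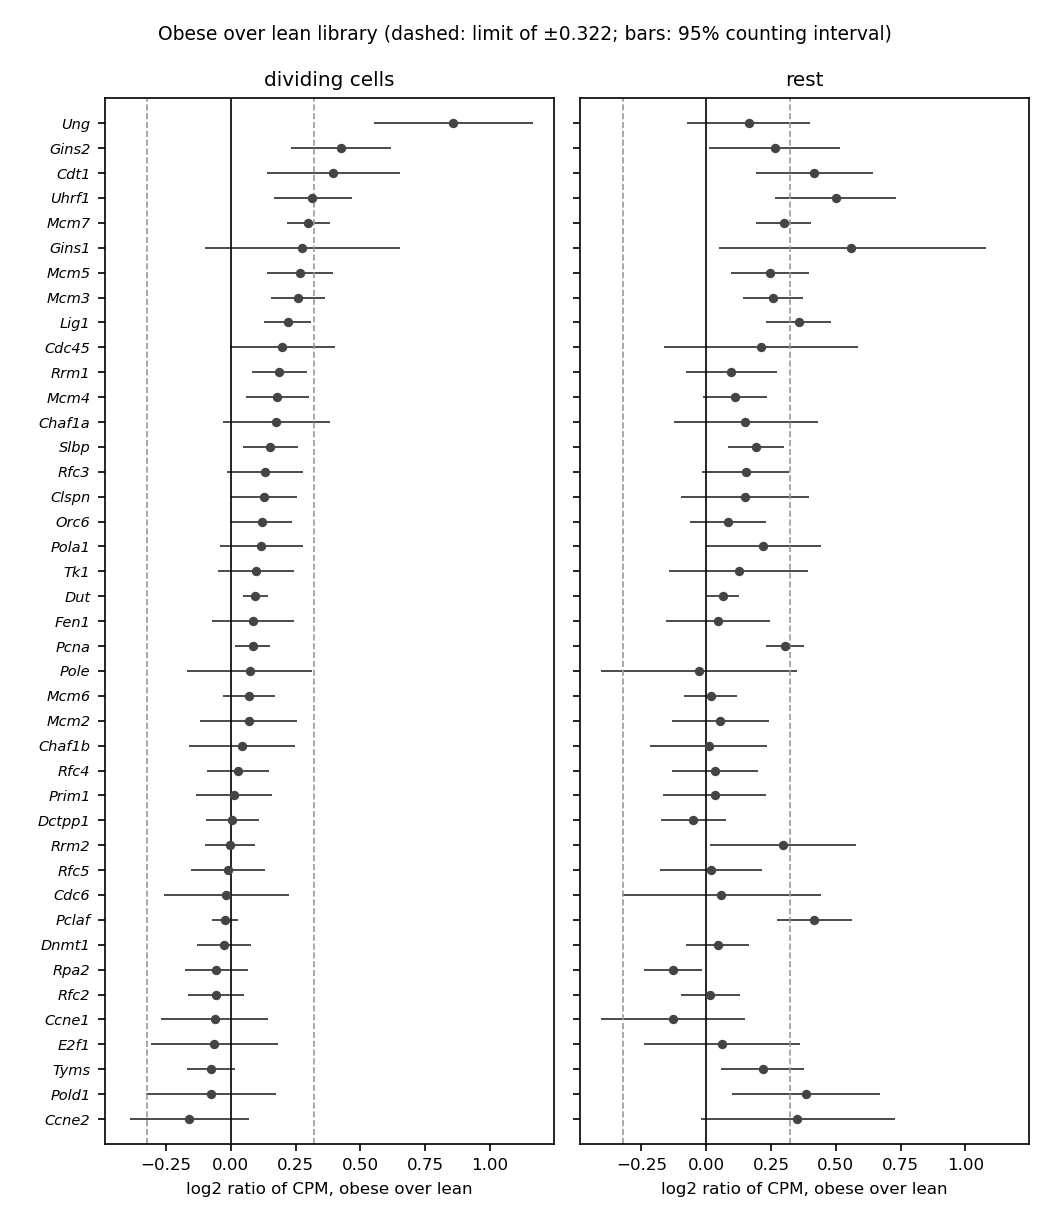
Log2 ratio of CPM, obese over lean (x axis), of each of the 41 genes in dividing cells and in the other cells, with exact conditional binomial 95% intervals and dashed lines at the limit of 0.322. Ung, Gins2 and Cdt1 lie past the line in dividing cells, 7 genes do so in the other cells, and none lies past it on the lower side.

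Other transcripts also differed between the 2 libraries. Gzmb and Prf1 (perforin) together were at 2065 CPM in lean and 929 CPM in obese dividing cells, and at 1585 and 712 CPM in the others. The 7 T cell markers summed to 5606 and 5048 CPM in dividing cells and 6207 and 5438 CPM in the others. Outside the dividing class, 4 dendritic cell markers summed to 24.0 CPM in the lean and 97.7 CPM in the obese library, and 5 red cell markers to 0 and 487 CPM, with all 5 listed at 0 in the lean library. These UMIs lay in few cells. Dendritic cell marker UMIs were seen in 96 lean and 93 obese cells of this class, and red cell marker UMIs in 23 obese cells. Across the 4 groups of cells the 7 melanoma markers summed to 0.61 to 1.91 CPM with Tyr and Sox10 at 0 in the lean library, the 7 myeloid markers to 11.6 to 28.4 CPM, and B cell, stroma and CD4 or NK markers to 1.56 to 20.2 CPM. The part of these transcripts in the ratios of the 41 genes was not tested.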

How the data were processed

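CD8+ TIL from B16 F0 tumors were profiled as 1 library per diet with 3′ droplet single-cell RNA sequencing. The authors made counts of UMIs per gene and cell with Cell Ranger 6.0.2 on mm10 and deposited them without normalization. The cells deposited (2697 lean, 2623 obese) equal the numbers the study gives after its filters, yet some lay outside those filters, which were applied here (2456 and 2289 kept). UMIs were summed per library and class as CPM with Python 3.11.15, numpy 2.4.6, scipy 1.17.1 and pandas 2.3.3. Genes entered a comparison with 20 UMIs or more over both arms. Intervals are exact 95% (Poisson, Clopper-Pearson, conditional binomial). No test was run, and doublets were not removed. The rule for Ccr7 or Lef1 cells was set after seeing the data, and some genes are not reported here. Named are, per comparison, the 5 of the 41 genes at each end of the ratios, and up to 3 at each end of another list. The 41 genes and all lists were chosen with earlier results of these data known. Steps were tested on simulated counts. The alternatives changed the class limit, scaling (TMM, edgeR 4.0.16), depth, cell filters and low-count filter. Gene positions are from GENCODE, in which 99.6% of 32285 identifiers were found, and no exon of the 41 overlapped another listed gene on the same strand. A search of protein sequences was not run.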

Additional observations from a re-analysis of the deposited data

Results flagged for a closer look

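Cells left out by the filters also held division marker UMIs, a signal in data that the comparisons do not use. Among cells with 50000 or more UMIs, 117 of 121 obese cells (96.7%, exact binomial 95% interval 91.8 to 99.1) and 70 of 83 lean cells (84.3%, 74.7 to 91.4) met the dividing rule. The 41 genes stood at 5123 CPM in these obese and 4111 CPM in these lean cells, so the upper limit removed dividing cells from both libraries. Among cells with 7.5% or more mitochondrial UMIs, 29 of 213 obese cells (13.6%, 9.31 to 19.0) and 6 of 158 lean cells (3.80%, 1.41 to 8.08) met the rule, with 2878 and 2316 CPM of the 41 genes. Depth lets a cell reach the limit of 10 UMIs more easily, and its part in these shares was not tested.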

How the results depend on the processing

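Under 16 alternatives, and a thinned class used only for the percent of dividing cells, 145 of 184 values stayed within their limits and 39 moved. For a percent the limits were its binomial interval. For a median ratio they were the medians of the single-gene interval ends, which is not an interval of the median. A count of genes could change by up to 1.5-fold. The genes at least 2-fold higher in dividing cells numbered 33 to 38 (lean) and 30 to 40 (obese) over the alternatives. The median ratio of obese over lean outside the dividing class ranged from 0.075 to 0.277. The settings without an upper UMI limit, without shared barcodes and with a thinned class were chosen after seeing the data. The median log2 ratio of dividing over other cells, 1.77 (lean) and 1.80 (obese), was 2.04 and 2.11 with a class limit of 5 UMIs, 1.56 and 1.44 with 20 UMIs, 1.48 and 1.18 with the class by rate, 2.20 and 2.12 as a mean over cells, 2.18 and 2.11 thinned to 2000 UMIs and 2.08 and 2.07 thinned to 1000. The percent of dividing cells was 16.5 and 20.7 with 5 UMIs, 9.61 and 11.2 with 20, 9.93 and 12.5 by rate, 14.9 and 19.8 over all deposited cells, 9.86 and 13.0 without the 5% deepest cells, 15.6 and 20.4 with no upper limit on UMIs, and 11.6 and 13.7 thinned with 2 or more UMIs. The obese share lay above the lean one in each, all cut from the same 2 libraries. In the thinned class the exact binomial intervals overlapped, at 10.3 to 13.0 (lean) and 12.3 to 15.2 (obese). The median ratio of obese over lean in dividing cells (0.087) was −0.014 by rate, with 0 genes past the limit on the higher side, and −0.011 thinned to 1000 UMIs. There 6 genes were higher and 6 lower, as also at 2000 UMIs (6 and 6), and 1 and 1 without the 5% deepest cells. The mitosis list's median in dividing cells (0.013) was −0.000972 with TMM factors, −0.039 as a mean over cells, −0.023 in CD8 cells without other lineage UMIs and −0.058 without the 5% deepest cells. The causes were not tested beyond the construction of each setting, in which thinning leaves fewer UMIs per gene. No paired analysis was possible because each diet is 1 library.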

Other observations

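Of 43 further replication genes, 3 were past the limit of 0.322 on the higher side in obese dividing cells and 4 on the lower side, and 7 and 2 were so in the other cells. Orc1, the large subunit of the origin recognition complex, was higher in the obese library at 0.66 (0.15 to 1.18) in dividing cells and 0.60 (0.04 to 1.17) in the others. Orc5, another subunit, was at 8.76 CPM in lean and 4.38 CPM in obese dividing cells, a log2 ratio of −1.002 (−1.58 to −0.44). Mcm8, a helicase of the Mcm family with a role in repair, was the lowest in the other cells, at 6.62 against 1.32 CPM (−2.32, −3.002 to −1.70). Of its 129 lean UMIs outside the dividing class, 71 lay in 1 cell, which the counting interval does not cover. In dividing cells Mcm8 was at 15.7 and 9.57 CPM (−0.72, −1.11 to −0.32), with at most 19 UMIs in a lean cell.

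Of 24 further nucleotide genes, 5 were past the limit on the higher side in obese dividing cells and 0 on the lower side. Umps (0.50, 0.29 to 0.73), which completes pyrimidine synthesis, and Pfas (0.44, 0.10 to 0.78) and Ppat (0.41, 0.21 to 0.61), both of the purine route, were highest. Among 20 genes of G1 cell cycle control, Cdkn1a, the p21 inhibitor of cyclin-dependent kinases, was at 89.1 CPM in lean and 56.9 CPM in obese dividing cells (−0.65, −0.81 to −0.49), Ccnd1 (cyclin D1) at 2.04 and 3.26 CPM (0.67, −0.22 to 1.62), and Ccnd3 (cyclin D3) at 49.1 and 61.9 CPM (0.33, 0.15 to 0.52). Of all genes tested, 15% were past the limit on the higher and 12.3% on the lower side in dividing cells, and 16.9% and 10.4% in the others.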
